A study of Mus musculus with 18 samples.

Results

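Ccl3, Ccl4, Ccl5 and Xcl1 encode chemokines that effector T cells secrete. These 4 genes were picked by symbol out of the 23930 genes of a targeted amplicon panel, and each was represented by 1 amplicon. RNA had been measured in CD4 and CD8 T cells sorted by flow cytometry from mouse bone marrow, in 18 libraries that formed 6 groups of 3. The mice were C57BL/6 animals given zinc in the drinking water for 30 days, pMT-10 animals given the same water, and pMT-10 animals on control water, with 3 mice of each kind. In pMT-10 mice an IL-10 transgene sits behind a metallothionein promoter, which zinc switches on, so both pMT-10 groups carried the transgene and both zinc groups received the metal. The labels give no age.

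Chemokines are small secreted proteins that steer leukocytes along a gradient by way of G protein-coupled receptors. The products of Ccl3 and Ccl4 (the macrophage inflammatory proteins) and of Ccl5 (RANTES) are CC chemokines that draw effector T cells and myeloid cells. XCL1 (lymphotactin) belongs to the small C family and acts on XCR1, a receptor of cross-presenting dendritic cells. Activated CD8 T cells and NK cells are known sources of all of them, and memory T cells that have met antigen keep Ccl5 transcripts ready.

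Total counts ran from 10546798 to 18519474 per library, and levels are given in CPM, the read count scaled to a common library total after TMM scaling, where 1 CPM stood for 10.25 to 18.87 reads. Chip A held the 12 libraries from mice on zinc water and chip B the 6 from pMT-10 mice without zinc, so within pMT-10 mice the metal and the chip cannot be told apart. Xist stood at 0.172 to 40.1 CPM in C57BL/6 libraries and at 527 to 1000 CPM in pMT-10 libraries, while Ddx3y stood at 110 to 206 CPM and at 0 to 0.683 CPM, so strain and sex go together as well. Il10 ran from 16.6 to 26 CPM in CD4 cells of zinc-fed pMT-10 mice, against 3.01 to 8.25 CPM in zinc-fed C57BL/6 mice and 1.4 to 3.63 CPM without zinc. In CD8 cells Il10 ran from 3.2 to 22.4 CPM in zinc-fed pMT-10 mice and had no read in the 6 control libraries. The summed level of 8 T cell genes was 5730 to 11000 CPM over all libraries.

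Ccl3, Ccl4 and Ccl5 lie close together on mouse chromosome 11 of GRCm38, where Ccl5 (83525778 to 83530518) and Ccl3 (83647844 to 83649355) are on the minus strand and Ccl4 (83662584 to 83664683) is on the plus strand. Xcl1 lies on chromosome 1, 164931644 to 164935527, minus strand. Each gene is protein-coding and its GENCODE transcript has 3 exons. From Ccl5 to Ccl4 the stretch covers 139 kb and holds 6 protein-coding gene records, among them the chemokine genes Ccl9 and Ccl6. A RefSeq record of Ccl4 reaches into Ccl3 on the opposite strand, and whether the counting used strand is not given in the sources used here. The coding sequences of Ccl3 and Ccl4, of 279 bases each, were 69.8% identical in a global alignment, and the longest run that they shared without a mismatch was 9 bases. Ccl3 and Ccl5 were 63.1% identical and shared a run of 13 bases, caagaatacatca, which is shown because it was the longest shared by any pair of the coding sequences.

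RefSeq promoter entries on GRCm38.p6 matched 2 of the 4 genes, Ccl3 and Xcl1; Ccl4 and Ccl5 had no entry. The 250 bases before the start of transcription in these entries are printed for both, since Ccl3 was called higher in zinc-fed pMT-10 mice and Xcl1 was not. That start is not the GENCODE gene end. The Ccl3 window lies wholly beyond the gene end at 83649355, with a gap, and the Xcl1 window reaches into the gene, which ends at 164935527. The 5 motifs searched, on both strands, are set in capitals. The core bound by Runx factors was searched as TGTGGT. The element bound by T-box factors such as T-bet and Eomes was searched as GGTGTGA. The core shared by NFAT and Rel factors was searched as GGAAA. The site of AP-1, the dimer of Fos and Jun proteins, was searched as TGANTCA. The TATA box, which positions the start of transcription, was searched as TATAA. The Ccl3 window is chr11:83649379-83649628 and the Xcl1 window is chr1:164935523-164935772, both on the minus strand and written 5′ to 3′.
Ccl3: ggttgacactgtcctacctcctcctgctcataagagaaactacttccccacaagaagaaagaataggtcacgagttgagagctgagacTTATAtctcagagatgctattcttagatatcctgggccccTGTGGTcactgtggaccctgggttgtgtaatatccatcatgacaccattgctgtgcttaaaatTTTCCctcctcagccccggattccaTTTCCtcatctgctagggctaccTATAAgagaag
Xcl1: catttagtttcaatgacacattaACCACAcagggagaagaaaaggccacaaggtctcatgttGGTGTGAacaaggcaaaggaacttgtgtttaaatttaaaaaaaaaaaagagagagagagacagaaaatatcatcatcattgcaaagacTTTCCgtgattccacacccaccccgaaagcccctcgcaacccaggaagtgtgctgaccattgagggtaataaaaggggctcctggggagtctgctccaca

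Both windows held 1 match to the Runx core, which 14% of the 32841 promoter windows of this length also held. Xcl1 held 1 T-box element, found in 3.33% of windows, and Ccl3 held none. The NFAT and Rel core occurred 2 times in Ccl3 and 1 time in Xcl1, and 55.6% of windows held it. TATAA occurred 2 times in Ccl3 and not in Xcl1, against 22.8% of windows, and neither window held the AP-1 site, present in 6.75%. The 5 matches of Ccl3 and the 3 of Xcl1 did not overlap each other. A match is a description of the letters only.

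Ccl3, Ccl4 and Ccl5 rose in zinc-fed pMT-10 mice against both control groups, in CD4 and in CD8 T cells, and Xcl1 did not pass the test in any of these comparisons. Ccl3 reached 523, 550 and 579 CPM in the CD4 libraries of zinc-fed pMT-10 mice, replicates 1 to 3. Zinc-fed C57BL/6 mice had 2.2, 6.95 and 20.7 CPM, and the pMT-10 mice without zinc had 0.84, 3.47 and 0.509 CPM. All 3 zinc-fed pMT-10 libraries lay above all 6 controls, and they were close to each other while the controls were spread widely (a coefficient of variation of 5.1% against 96.6% and 101%). In CD8 cells Ccl3 was at 241, 135 and 310 CPM in zinc-fed pMT-10 mice. The CD8 controls had 5.75, 5.89 and 2.01 CPM in zinc-fed C57BL/6 mice and 4.78, 7.51 and 1.91 CPM without zinc. The CD8 groups did not overlap either. By means the order was zinc-fed pMT-10 CD4 (551 ± 28.1 CPM, SD, n = 3), zinc-fed pMT-10 CD8 (228 ± 87.9), zinc-fed C57BL/6 CD4 (9.96 ± 9.63), pMT-10 without zinc CD8 (4.73 ± 2.8), zinc-fed C57BL/6 CD8 (4.55 ± 2.2) and pMT-10 without zinc CD4 (1.61 ± 1.62). Among the last 4 groups, the controls, neighbours in that order overlapped.

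Ccl4, the close relative of Ccl3, had few reads in the controls. Zinc-fed pMT-10 mice had 57.7, 54.3 and 48.1 CPM in CD4 cells, from 613 to 884 reads per library. In zinc-fed C57BL/6 mice it was at 0.228, 1.62 and 2.91 CPM, and without zinc at 0.0646, 0.693 and 0.191 CPM, from 1 to 37 reads. The lowest zinc-fed pMT-10 library thus lay above the highest control. The CD8 libraries of zinc-fed pMT-10 mice had 25.6, 15.5 and 25.5 CPM. The CD8 controls were at 0.686, 1.59 and 1.27 CPM in zinc-fed C57BL/6 mice and at 0.721, 1.46 and 0.583 CPM without zinc. Here too no control reached a zinc-fed pMT-10 library. The order of means was zinc-fed pMT-10 CD4 (53.4 ± 4.87 CPM), zinc-fed pMT-10 CD8 (22.2 ± 5.8), zinc-fed C57BL/6 CD4 (1.59 ± 1.34), zinc-fed C57BL/6 CD8 (1.18 ± 0.458), pMT-10 without zinc CD8 (0.922 ± 0.474) and pMT-10 without zinc CD4 (0.316 ± 0.333), n = 3 each, with overlap between neighbours among the 4 control groups.

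Ccl5 was present in every library. Zinc-fed pMT-10 mice had 14600, 8770 and 17300 CPM in CD4 cells, where its amplicon took 1.36, 0.842 and 1.66% of all reads. The CD4 controls had 311, 509 and 1260 CPM in zinc-fed C57BL/6 mice and 475, 426 and 360 CPM in those without zinc, with at most 0.129% of reads. The highest control, zinc-fed C57BL/6 replicate 3, was also the highest of its group for Ccl3 and Ccl4. In CD8 cells Ccl5 was at 6610, 5120 and 8350 CPM in zinc-fed pMT-10 mice. It was at 630, 936 and 793 CPM in zinc-fed C57BL/6 mice and at 755, 982 and 560 CPM without zinc. The zinc-fed pMT-10 libraries lay above all controls in both cell types. Means fell in the order zinc-fed pMT-10 CD4 (13600 ± 4370 CPM), zinc-fed pMT-10 CD8 (6690 ± 1620), zinc-fed C57BL/6 CD8 (787 ± 153), pMT-10 without zinc CD8 (766 ± 211), zinc-fed C57BL/6 CD4 (694 ± 502) and pMT-10 without zinc CD4 (420 ± 58), n = 3 each. Among the 4 control groups, neighbours in that order overlapped.

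Xcl1, the gene of the C chemokine, had another pattern. Its CD4 levels were 23.5, 52.9 and 23.4 CPM in zinc-fed pMT-10 mice, 14.3, 32.1 and 36.3 CPM in zinc-fed C57BL/6 mice, and 60.1, 65.2 and 53.3 CPM without zinc. The zinc-fed CD4 groups overlapped each other and lay below the group without zinc. Its CD8 levels were 20, 38.4 and 52.8 CPM in zinc-fed pMT-10 mice, 54.2, 102 and 67.5 CPM in zinc-fed C57BL/6 mice, and 63.7, 63.4 and 44 CPM without zinc. The zinc-fed pMT-10 CD8 libraries lay below those of C57BL/6 mice and overlapped those without zinc. Over the 6 groups the means ran from 74.5 ± 24.5 CPM (zinc-fed C57BL/6 CD8) through 59.5 ± 5.99 and 57 ± 11.3 CPM (pMT-10 without zinc, CD4 and CD8) and 37 ± 16.4 and 33.3 ± 17 CPM (zinc-fed pMT-10, CD8 and CD4) to 27.6 ± 11.7 CPM (zinc-fed C57BL/6 CD4), n = 3 each. Every group overlapped its neighbours in that order.

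**Figure D1:**
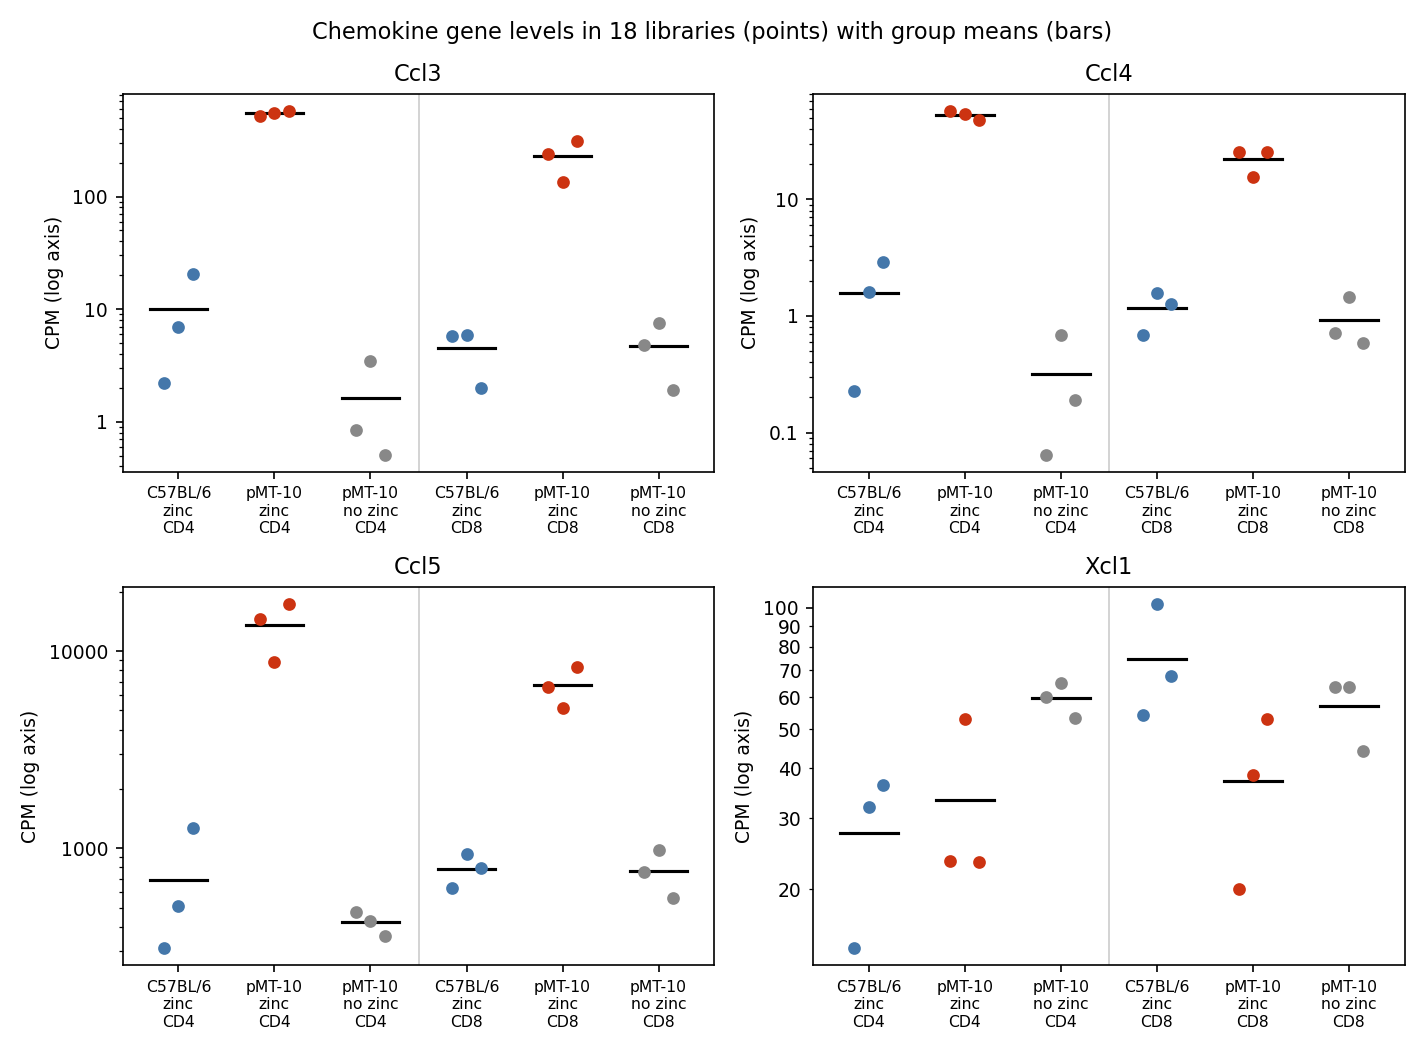
Level of each chemokine gene in CPM (log axis) in the 6 groups, with CD4 groups left and CD8 groups right of the grey line. Points are libraries and bars are means of 3; the zinc-fed pMT-10 libraries (red) lie above all controls for Ccl3, Ccl4 and Ccl5 (for Ccl3, 523 to 579 CPM in CD4 cells), and Xcl1 stays between 14.3 and 102 CPM in all groups.

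The first comparison asked how T cells of mice with zinc-induced IL-10 differed from those of C57BL/6 mice on the same water. In CD4 cells 3 of the 4 genes rose, where 9.29% of the 11316 genes tested were called higher, and none fell, where 9.4% were called lower. These 3 were also the ones with no overlap between the groups, which 18.6% of all genes tested reached in that direction. A gene was called at an adjusted p under 0.05 in edgeR's quasi-likelihood test over all genes tested. The mean CPM of Ccl3 was 55.3-fold higher (log2 fold change 5.79, SE 0.76, adjusted p = 0.00011). Ccl4 was 33.7-fold higher (log2 5.07, SE 0.54, adjusted p = 1.8e-06) and Ccl5 19.5-fold higher (log2 4.29, SE 0.45, adjusted p = 7.06e-06). These folds were 120, 57.7 and 33 once zinc-fed C57BL/6 CD4 replicate 3 was left out. Xcl1 differed by 0.27 on the log2 scale (95% interval -0.54 to 1.07, adjusted p = 0.684). The median log2 fold change of the 4 genes was 4.68, beside -0.047 over all genes tested.

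In CD8 cells the same contrast also had 3 of 4 genes higher and none lower, where 5.68% of all genes tested were called higher and 3.13% lower. Groups without overlap, the first above the second, occurred for 12.2% of all genes. Ccl3 rose 50.2-fold (log2 5.68, SE 0.78, adjusted p = 0.000355), Ccl4 18.8-fold (log2 4.23, SE 0.55, adjusted p = 3.37e-05) and Ccl5 8.51-fold (log2 3.09, SE 0.42, adjusted p = 0.000203). The Xcl1 mean was 37 against 74.5 CPM, a log2 difference of -1 (95% interval -1.8 to -0.21), which did not pass with edgeR (adjusted p = 0.11) and did with DESeq2 (adjusted p = 0.047). The groups did not overlap for Xcl1, as was the case for 11.4% of all genes tested in that direction. The exact permutation p of Xcl1 in that contrast was 0.1, the smallest that 3 against 3 libraries can give. The same test also gave 0.1 for Ccl3, Ccl4 and Ccl5 in every comparison of zinc-fed pMT-10 mice with a control. The median of the 4 genes was 3.66, beside -0.0037 over all genes.

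The second comparison set zinc-fed pMT-10 mice against pMT-10 mice without zinc, and shares its zinc-fed pMT-10 libraries with the first. In CD4 cells 3 of the 4 genes rose against 9.38% of all genes tested, and none fell against 9.4%. The share of all genes whose first group lay wholly above the second was 21%. Ccl3 was 343-fold higher (log2 8.35, SE 0.88, adjusted p = 1.55e-05), Ccl4 169-fold (log2 7.28, SE 0.63, adjusted p = 1.95e-07) and Ccl5 32.3-fold (log2 5.01, SE 0.46, adjusted p = 2.05e-06). The first 2 of these folds rest on 86 and 17 reads over the 3 control libraries, and they became 817 and 418 without pMT-10 without zinc CD4 replicate 2. Xcl1 was at 33.3 against 59.5 CPM (log2 -0.845, 95% interval -1.64 to -0.051, edgeR adjusted p = 0.134), with no overlap, a state that 22.3% of all genes reached in that direction. Without zinc-fed pMT-10 CD4 replicate 2, its highest library, the Xcl1 value was -1.34 with an adjusted p of 0.0151 in edgeR, and limma voom on all libraries gave 0.0335. The median of the 4 genes was 6.15, beside -0.051 over all genes tested.

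In CD8 cells of the second comparison 3 of 4 genes rose, where 5.1% of all genes tested did, and none fell, where 2.64% did. The share without overlap in that direction was 11.9% of all genes. Ccl3 rose 48.2-fold (log2 5.66, SE 0.77, adjusted p = 0.000315), Ccl4 24.1-fold (log2 4.66, SE 0.56, adjusted p = 1.47e-05) and Ccl5 8.74-fold (log2 3.13, SE 0.42, adjusted p = 0.000156). Xcl1 had a log2 difference of -0.62 (95% interval -1.41 to 0.17, adjusted p = 0.381) and its groups overlapped. The median was 3.89, beside -0.0045 over all genes. In sorted bulk populations more cells that carry a transcript and more transcript per cell cannot be told apart, which holds for every difference here.

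**Figure D2:**
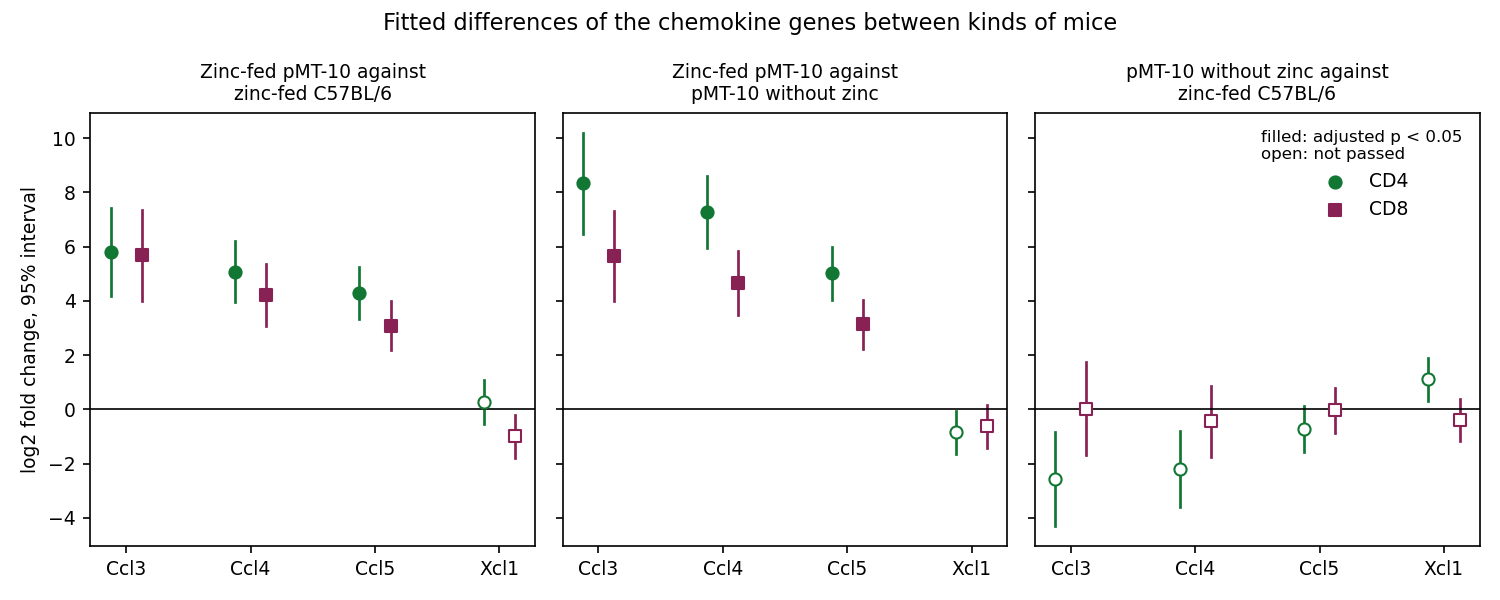
Fitted log2 fold change of the 4 genes with 95% intervals in CD4 (green circles) and CD8 (purple squares) cells, for 3 comparisons of mice. Filled symbols passed an adjusted p of 0.05: Ccl3, Ccl4 and Ccl5 in both comparisons of zinc-fed pMT-10 mice (log2 3.09 to 8.35), and no gene in the comparison of the control groups.

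The control groups, pMT-10 without zinc against zinc-fed C57BL/6, differ in strain, zinc, sex and chip. None of the 4 genes was called in CD4 cells, where 0.141% of all genes tested were, although 3 of 4 had an unadjusted p under 0.05 in edgeR and in DESeq2. Those were Ccl3 at 1.61 against 9.96 CPM (log2 -2.56, adjusted p = 0.767), Ccl4 at 0.316 against 1.59 CPM (log2 -2.21, adjusted p = 0.62) and Xcl1 at 59.5 against 27.6 CPM (log2 1.11, adjusted p = 0.814). The ratio of mean CPM was 0.161 for Ccl3 and 0.2 for Ccl4. It became 0.0677 and 0.0806 without pMT-10 without zinc CD4 replicate 2, and 0.351 and 0.342 without zinc-fed C57BL/6 CD4 replicate 3. For Ccl3 and Ccl4 the groups overlapped, and for Xcl1 the group without zinc lay above the other, as did 6.14% of all genes tested. In CD8 cells 0 of the 4 were called by edgeR, DESeq2 or limma voom, 0 had an unadjusted p under 0.05, and all 4 overlapped, where 0.0972% of all genes tested were called. The 95% interval for Ccl5 there was -0.87 to 0.79 on the log2 scale.

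CD4 and CD8 cells of like mice were also compared. In zinc-fed C57BL/6 mice Xcl1 was higher in CD8 than in CD4 cells (74.5 against 27.6 CPM, log2 1.43, SE 0.38, adjusted p = 0.0111), 1 of 4 genes called higher where 9.28% of all genes tested were. All 3 CD8 libraries lay above the CD4 libraries, as for 16.2% of all genes. That adjusted p was 0.0661 once zinc-fed C57BL/6 CD8 replicate 2 was left out. Ccl3 (4.55 against 9.96 CPM), Ccl4 (1.18 against 1.59) and Ccl5 (787 against 694) did not pass there. In zinc-fed pMT-10 mice all 3 CC chemokine genes had every CD8 library below every CD4 library, as 23.5% of all genes did. Of these Ccl4 passed the test (22.2 against 53.4 CPM, log2 -1.26, SE 0.44, adjusted p = 0.0382), 1 of 4 genes called lower against 14.7% of all genes tested, and it did not pass without any 1 of the 6 libraries (adjusted p from 0.0605 to 0.157). Ccl3 (log2 -1.27, adjusted p = 0.14) and Ccl5 (log2 -1.02, adjusted p = 0.0655) did not pass, and Xcl1 differed by 0.16 (95% interval -0.64 to 0.96). In pMT-10 mice without zinc none of the 4 passed in edgeR, DESeq2 or limma voom, where edgeR called 21.7% of all genes tested. Ccl5 came nearest (766 CPM in CD8 against 420 CPM in CD4 cells, adjusted p = 0.14 in edgeR's quasi-likelihood test), and 1 of the 4, Ccl5, had an unadjusted p under 0.05. All CD8 libraries lay above all CD4 libraries for Ccl5, as for 17.4% of all genes.

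Whether the change in CD8 cells differed from that in CD4 cells was tested as the difference of the log2 changes. Against zinc-fed C57BL/6 mice it was -0.11 for Ccl3 (95% interval -2.21 to 1.99), -0.845 for Ccl4 (-2.39 to 0.7), -1.2 for Ccl5 (-2.38 to -0.021) and -1.27 for Xcl1 (-2.4 to -0.14). None passed (adjusted p from 0.181 to 0.977 in edgeR, 5.49% of all genes tested called), and 2 had an unadjusted p under 0.05. Against pMT-10 mice without zinc it was -2.69 for Ccl3 (-4.95 to -0.43), -2.62 for Ccl4 (-4.38 to -0.87), -1.88 for Ccl5 (-3.07 to -0.7) and 0.23 for Xcl1 (-0.89 to 1.34). No gene passed in edgeR (adjusted p of 0.179, 0.0848, 0.0719 and 0.88, 3.78% of all genes tested called), while DESeq2 called 2 and limma voom 1. Without zinc-fed pMT-10 CD4 replicate 1 those shares of all genes were 2.19% and 1.14%. The CD8 rise was the smaller estimate for all 3 CC chemokine genes in both comparisons, a difference that edgeR's test did not call.

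Across the 18 libraries log2 CPM of Ccl3 and Ccl4 went together (Pearson r = 0.984, Spearman rho = 0.95), as did Ccl3 and Ccl5 (r = 0.97, rho = 0.903) and Ccl4 and Ccl5 (r = 0.974, rho = 0.917). With Xcl1 the values were r = -0.391 for Ccl3, -0.341 for Ccl4 and -0.328 for Ccl5 (rho = -0.441, -0.387 and -0.267). These are descriptions: the points fall into zinc-fed pMT-10 and control libraries, and all genes of a library share its depth. The number of Ccl3 reads per Ccl4 read was 9.07, 10.1 and 12 in CD4 libraries of zinc-fed pMT-10 mice and 9.4, 8.69 and 12.1 in their CD8 libraries. In the controls it ran from 1.58 to 13. The 13 came from pMT-10 without zinc CD4 replicate 1, which had 13 Ccl3 reads and 1 Ccl4 read. The next highest control was 9.67, in zinc-fed C57BL/6 CD4 replicate 1, which had 3 Ccl4 reads. The zinc-fed pMT-10 libraries at 10.1, 12 and 12.1 thus lay inside the control range only through that 1 Ccl4 read. On the log2 scale of Ccl4 to Ccl3, with 0.5 added to each count, the mean was -3.37 ± 0.21 in zinc-fed pMT-10 CD4 cells against -2.66 ± 0.52 (zinc-fed C57BL/6) and -2.24 ± 0.945 (without zinc). In CD8 cells it was -3.31 ± 0.25 against -1.83 ± 1.17 and -2.22 ± 0.51, n = 3 each. The exact two-sided permutation p was 0.1 in these 4 comparisons, which is the smallest possible (adjusted over 6 comparisons 0.15), and 0.7 between the controls in both cell types. The added 0.5 weighs more in libraries with few reads.

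By the rule for likeness, the 5 genes whose log2 CPM had the highest Pearson r over the 18 libraries were named for each chemokine. For Ccl3 they were Lmo1 (0.949), Setbp1 (0.941), Sema7a (0.938), 2900011O08Rik (0.937) and 1700029J03Rik (0.933). For Ccl4 they were Setbp1 (0.95), Igf2r (0.949), Chst11 (0.948), Tacc3 (0.946) and Cox6a2 (0.94). For Ccl5 they were Lax1 (0.976), Pik3ap1 (0.964), Baiap3 (0.962), 2900011O08Rik (0.959) and Lmo1 (0.958). Lax1 encodes a membrane adaptor of lymphocyte antigen receptor signalling, and averaged 126 ± 33 CPM in zinc-fed pMT-10 CD4 cells against 30.7 ± 10.3 in zinc-fed C57BL/6 and 30.7 ± 1.21 without zinc (n = 3 each). Lmo1 was thin, with 178 and 144 reads in the zinc-fed pMT-10 CD4 and CD8 groups and at most 3 in any control group. Control reads were also few for 2900011O08Rik (at most 7 in a group), Cox6a2 (at most 23) and 1700029J03Rik (at most 35). Spearman rho with Ccl3 was 0.782 for 2900011O08Rik and 0.77 for 1700029J03Rik. For Xcl1 the values were lower: Hhex (0.796), Pygl (0.783), Tle4 (0.78), Fcer1g (0.774) and Adck1 (0.767). Tle4, a corepressor of the Groucho family, was highest at 393 ± 53.2 CPM in zinc-fed C57BL/6 CD8 cells, the group that was highest for Xcl1, and lowest at 183 ± 11.6 CPM in zinc-fed C57BL/6 CD4 cells, the group that was lowest for Xcl1 (n = 3). Ranked by Spearman rho instead, the lists kept 0, 2, 1 and 1 of these 5 names for Ccl3, Ccl4, Ccl5 and Xcl1.

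On the receiving side, Ccrl2, a receptor that binds chemoattractant without signalling, rose in CD8 cells, at 6.15 CPM in zinc-fed pMT-10 mice against 0.818 CPM in zinc-fed C57BL/6 mice (adjusted p = 0.00351) and 0.96 CPM without zinc (adjusted p = 0.00497). Fitted on the 9 CD8 libraries alone, Ccrl2 missed the threshold (adjusted p = 0.0565 and 0.0785), and so it did against no zinc without zinc-fed pMT-10 CD8 replicate 3 (0.0692). Its CD4 level was 22.7 against 14.4 and 21.7 CPM and did not pass. Dpp4, a peptidase that trims CCL5, was at 199 CPM in zinc-fed pMT-10 CD4 cells against 161 and 158 CPM and at 478 in CD8 cells against 356 and 430 CPM, and did not pass. Ccr1, a receptor of CCL3 and CCL5, averaged at most 2.91 CPM in CD4 cells and had no read in any CD8 group. Xcr1, the receptor of XCL1, was too low to be tested.

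The neighbours of the CC genes on chromosome 11 gave further values. Of 31 other chemokine ligands in the panel 9 were tested. In CD4 cells 1 of the 9 was called higher against each control, where 9.29% and 9.38% of all genes tested were. In CD8 cells 1 was called higher against C57BL/6 mice and 2 against no zinc, where 5.68% and 5.1% were. A fall was called for 1 of the 9, in CD4 cells against no zinc, where 9.4% of all genes tested fell. Ccl9, which lies between Ccl5 and Ccl6, rose in all 4 comparisons. It ran from 7.94 to 12.6 CPM in zinc-fed pMT-10 CD4 cells, against 0.228 to 2.01 CPM in zinc-fed C57BL/6 mice (adjusted p = 0.0274) and 0 to 0.636 CPM without zinc (adjusted p = 0.00712). In CD8 cells it ran from 0.941 to 28.2 CPM, against 0 to 0.0935 (adjusted p = 0.00194) and 0 to 0.59 CPM (adjusted p = 0.00899). These counts are thin, and the first of these calls was lost without zinc-fed C57BL/6 CD4 replicate 1 or 3 or zinc-fed pMT-10 CD4 replicate 1 or 2, at an adjusted p of up to 0.112. In CD8 cells limma voom gave 0.0712 and 0.0684, and the second of those calls was also lost without zinc-fed pMT-10 CD8 replicate 1 (0.0771). Ccl6 rose in CD8 cells against pMT-10 mice without zinc (5.68 against 0.123 CPM, adjusted p = 0.00198) and did not pass in the other 3 comparisons. Cx3cl1 had no read in zinc-fed pMT-10 CD4 cells and 0 to 1.87 CPM without zinc (adjusted p = 0.0444, called lower). Pf4 and Ppbp, the platelet chemokine genes, are named after their values were seen. In CD4 replicates 1, 2 and 3 of zinc-fed pMT-10 mice Pf4 stood at 0, 0.354 and 71 CPM and Ppbp at 0.392, 0 and 67.8 CPM, so that replicate 3 stood apart, and neither passed edgeR's test against C57BL/6 (adjusted p = 0.103 and 0.072) or against no zinc (0.0716 and 0.0775). The platelet markers summed to 0.849, 0.0886 and 20.2 CPM in the same 3 libraries and to at most 3.39 CPM in any other. Without replicate 3 the CD4 log2 fold changes of Ccl3, Ccl4 and Ccl5 were 5.75, 5.14 and 4.07 against C57BL/6 and 8.32, 7.36 and 4.8 against no zinc, and all were called. The median log2 fold change of the list was 1.53 and 2 in CD4 cells and 0.43 and -0.3 in CD8 cells (against C57BL/6, then without zinc).

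Among 14 tested transcription factors of effector and chemokine genes, 5 rose and none fell in CD4 cells against either control: Eomes, Runx3, Prdm1, Irf1 and Nfatc2. Of all genes tested 9.29% and 9.38% rose in these comparisons and 9.4% fell in each. Eomes, a T-box factor of effector and memory cells, was at 335 CPM against 20.2 and 12.3 CPM (adjusted p = 1.42e-08 and 3.14e-09), and Runx3, a factor of the cytotoxic lineage, at 409 against 138 and 169 CPM (adjusted p = 1.16e-06 and 1.09e-05). In CD8 cells Prdm1, Irf1, Irf4 and Jun rose against both controls, where 5.68% and 5.1% of all genes tested did. Prdm1, which encodes BLIMP-1, was at 38.7 CPM against 2.18 and 0.596 CPM (adjusted p = 8.56e-05 and 9.38e-06). Klf13, known as a late activator of the human CCL5 promoter, fell against zinc-fed C57BL/6 mice (363 against 562 CPM, adjusted p = 0.0111) and was at 509 CPM without zinc (adjusted p = 0.0546). That call was lost without zinc-fed pMT-10 CD8 replicate 2 (adjusted p = 0.0615). Tbx21, the gene of T-bet, did not pass in edgeR's fit to all 18 libraries in any of the 4 (62.2 against 44.4 and 85.1 CPM in CD4 cells, 66.3 against 64.8 and 43.4 CPM in CD8 cells), nor did Eomes (154 against 97.3 and 88.6 CPM) or Runx3 (406 against 406 and 383 CPM) in CD8 cells. Other settings did call Tbx21. In CD8 cells against no zinc it was called higher by DESeq2 (adjusted p = 0.0405) and with no filter (0.0276). In CD4 cells it was called higher against C57BL/6 with CD4 libraries alone (0.0312) or without zinc-fed C57BL/6 CD4 replicate 3 (0.0365), and lower against no zinc with library size only (0.0434) or the compared groups alone (0.029). The median of the list was 0.14, 0.029, 0.21 and 0.4 (CD4 against C57BL/6, CD4 against no zinc, then CD8 in the same order). The CD4 call of Prdm1 against C57BL/6 mice was lost without replicate 1 or 2 of zinc-fed C57BL/6 or 1 or 3 of zinc-fed pMT-10 (edgeR adjusted p up to 0.0976). The CD4 call of Prdm1 against no zinc was lost without replicate 2 or 3 of pMT-10 without zinc (up to 0.0586). The CD8 call of Jun against no zinc was lost without zinc-fed pMT-10 replicate 2 or replicate 2 or 3 without zinc (up to 0.103).

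Genes of the secretory granules, in whose company CCL5 is released, moved as well. Of 11 tested genes 5 rose and 1, Lamp1, fell in CD4 cells against each control. The shares of all genes tested were 9.29% and 9.38% for rises and 9.4% for falls in CD4 cells, and 5.68% and 5.1% for rises in CD8 cells. Gzmb, Gzmk, Prf1 and Rab27a, which encode 2 granzymes, perforin and a GTPase that docks granules, rose in both, with Gzmk at 1090 against 51.8 and 19 CPM (adjusted p = 0.000362 and 6.06e-05) and Prf1 at 95.5 against 15.3 and 9.12 CPM (adjusted p = 1.27e-05 and 1.17e-06). In CD8 cells 5 rose against C57BL/6 mice and 4 against no zinc, among them Gzma at 25.6 against 2.27 and 1.31 CPM (adjusted p = 0.00571 and 0.00149) and Rab27a at 348 against 226 and 209 CPM (adjusted p = 0.0162 and 0.00517). The Rab27a call against C57BL/6 mice was lost without zinc-fed C57BL/6 CD8 replicate 3 (adjusted p = 0.102). Prf1 did not pass in CD8 cells (99.8 against 63.1 and 50.3 CPM). The median log2 fold change of these genes was 0.52 and 0.66 in CD4 cells and 0.62 and 0.61 in CD8 cells.

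Of 6 cytokine genes made beside these chemokines, 2 rose and 1 fell in CD4 cells against each control. Among all genes tested 9.29% and 9.38% rose and 9.4% fell in CD4 cells, and 5.68% and 5.1% rose in CD8 cells. Ifng was at 662 against 49.6 and 37 CPM (adjusted p = 3.16e-05 and 1.3e-05), Fasl at 44.3 against 8.03 and 14.4 CPM (adjusted p = 0.000482 and 0.0101), and Lta, which fell, at 18.1 against 51.4 and 40 CPM (adjusted p = 0.00131 and 0.0101). In CD8 cells Ifng was at 240 against 11.2 and 8.95 CPM (adjusted p = 2.52e-05 and 1.47e-05) and Fasl at 25.8 against 4.66 and 3.57 CPM (adjusted p = 0.00142 and 0.000348), and both rose. Il2 rose in CD8 cells against no zinc (4.12 against 1.17 CPM, adjusted p = 0.0427), a call lost without any 1 of the 6 libraries (adjusted p from 0.0561 to 0.16). Tnf did not pass in any comparison and averaged 3.96 against 2.73 and 2.79 CPM in CD4 cells, nor did Csf2, which averaged 0.202 against 0.732 and 1.73 CPM there. Leaving out 1 library ended the calls of Fasl (without pMT-10 without zinc replicate 3, adjusted p = 0.0508) and of Lta (without zinc-fed pMT-10 replicate 1 or 3, up to 0.0766) in CD4 cells against no zinc. The median of the list was 0.75, 0.54, 0.33 and 1.05 in the same order.

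**Figure D3:**
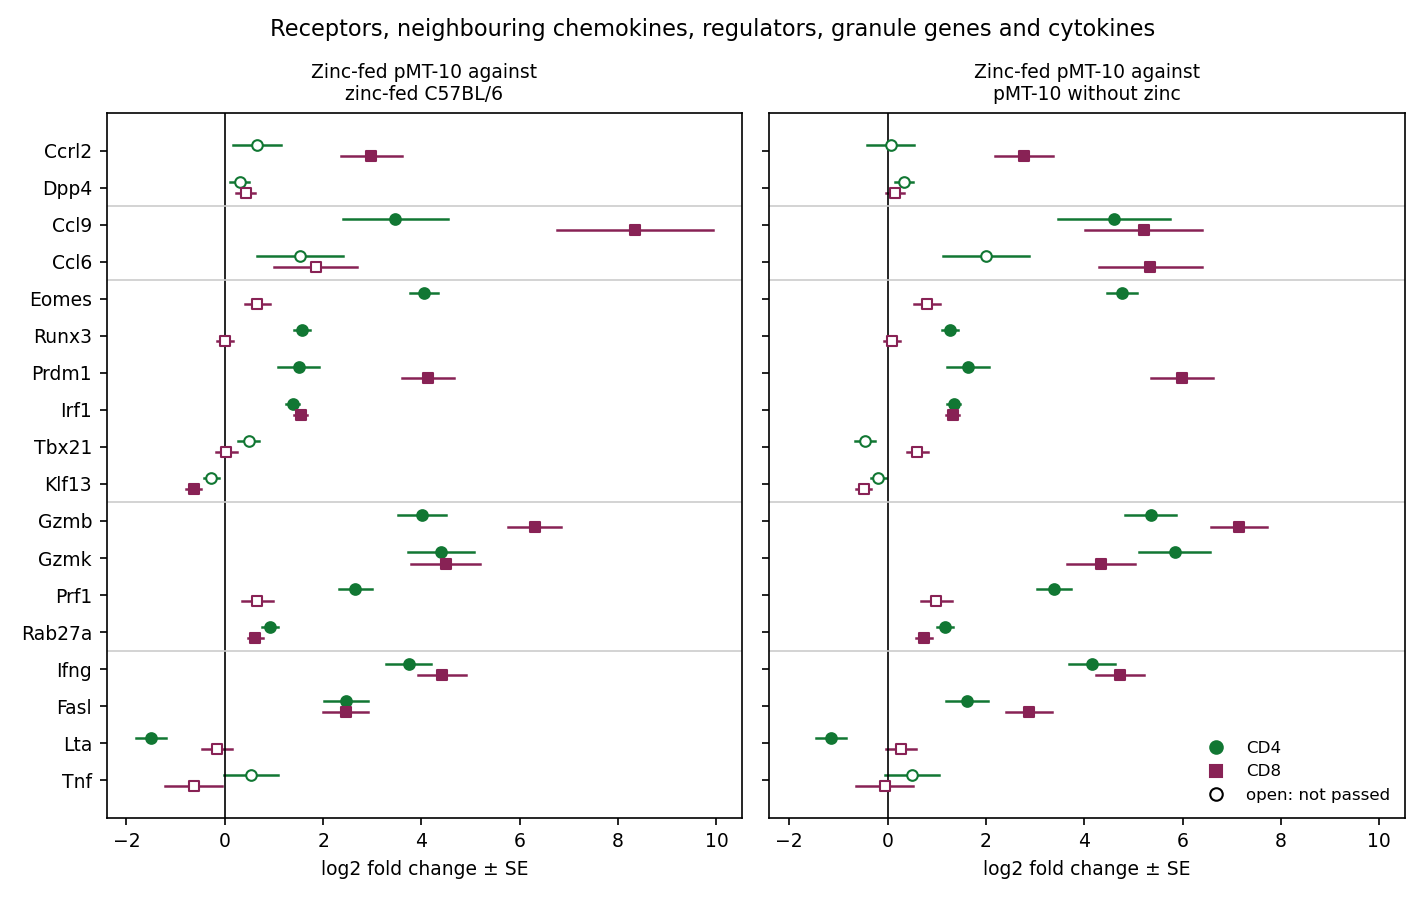
Fitted log2 fold change with its SE for receptors, neighbouring chemokines, transcription factors, granule genes and cytokines, in CD4 (green circles) and CD8 (purple squares) cells, against each control. Filled symbols passed an adjusted p of 0.05; Ccl9, Prdm1, Irf1, Gzmb, Gzmk, Rab27a, Ifng and Fasl rose in all 4 comparisons, and Eomes (log2 4.05 and 4.77), Runx3 and Prf1 rose in CD4 cells.

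NK cells also make these chemokines, so NK markers are given beside them. The 9 markers summed to 12.5 to 20.4 CPM in CD4 libraries of zinc-fed pMT-10 mice, against 45.7 to 60 CPM in zinc-fed C57BL/6 mice and 191 to 219 CPM without zinc. In CD8 libraries they summed to 53.8 to 115 CPM, against 158 to 267 and 126 to 219 CPM. The zinc-fed pMT-10 CD4 libraries had the lowest sums and the highest Ccl3, Ccl4 and Ccl5. Zinc-fed pMT-10 CD8 libraries, the next highest for these genes, had sums that overlapped those of zinc-fed C57BL/6 CD4 libraries. Ncr1, an NK cell receptor gene too low over the groups to be tested, had no read in either zinc-fed pMT-10 group and some in every control group. Klra7, the most abundant marker in the CD8 groups, averaged 40.2 CPM in zinc-fed pMT-10 CD8 cells, against 94.6 and 70.9 CPM. Of 6 tested markers 3 fell in CD4 cells against C57BL/6 mice (Klrb1c, Klre1 and Klra7) and 4 against no zinc, those 3 and Klri2. In CD8 cells 1 fell against C57BL/6 mice (Fcer1g, 7.91 against 25.7 CPM, adjusted p = 0.033) and none was called against no zinc. The share of all genes tested that fell was 9.4% in each CD4 comparison and 3.13% and 2.64% in CD8 cells. The Fcer1g call was lost without zinc-fed C57BL/6 replicate 2 or zinc-fed pMT-10 replicate 1 or 3 (adjusted p up to 0.173), and limma voom called neither Klra7 fall (0.222 and 0.0843) nor the Klre1 fall against C57BL/6 mice (0.0808). The 3 groups with the highest Xcl1 means were also the 3 with the highest NK marker sums. Zinc-fed pMT-10 CD4 replicate 2 had 52.9 CPM of Xcl1 at a sum of 20.4 CPM. The part of NK cells, or of T cells that carry NK receptors, in the values of Xcl1 or of the CC chemokine genes was not tested.

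**Figure D4:**
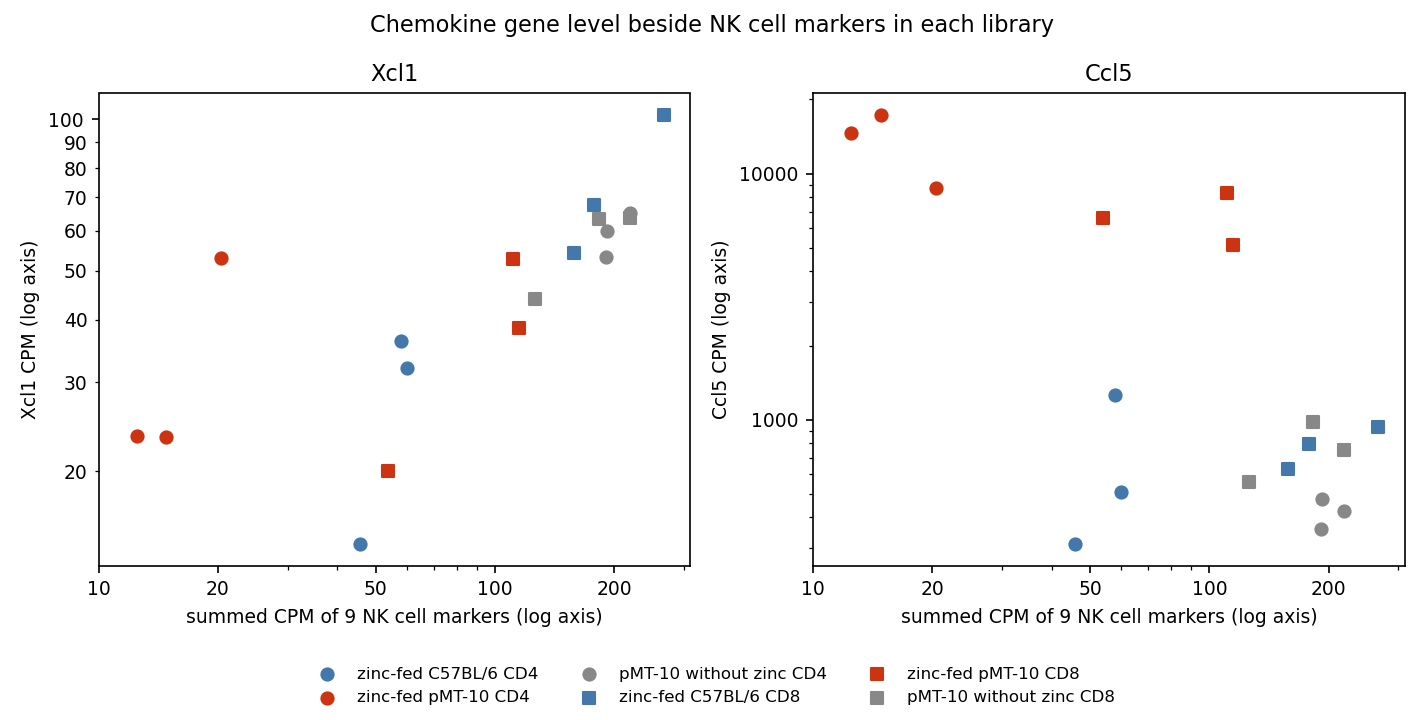
Xcl1 (left) and Ccl5 (right) in CPM against the summed CPM of 9 NK cell markers, 1 point per library, both axes log; circles are CD4 and squares CD8 libraries. The zinc-fed pMT-10 CD4 libraries (red circles) have the lowest sums (12.5 to 20.4 CPM) and the highest Ccl5 (8770 to 17300 CPM). The part of NK cells in either level was not tested.

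Markers of other cell types were summed in each library. The 7 neutrophil markers summed to 2.81 to 3.6 CPM in zinc-fed pMT-10 CD4 cells, against 1.37 to 2.16 and 0.907 to 1.21 CPM. In CD8 cells they summed to 0.341 to 5.42 CPM, against 0.172 to 0.28 and 0.195 to 1.38 CPM. The 7 monocyte and macrophage markers summed to 26.4 to 33.4 CPM in zinc-fed pMT-10 CD4 cells, against 8.33 to 11.4 and 9.5 to 14 CPM, and to 17.5 to 36.6 CPM in CD8 cells, against 11.4 to 16.2 and 12.1 to 19.5 CPM. Cd68, a lysosomal glycoprotein gene, made up most of these sums (25.1 and 21.3 CPM in the zinc-fed pMT-10 CD4 and CD8 groups). It rose in CD4 cells (adjusted p = 0.00338 and 0.0209, the second lost without any of 4 libraries at up to 0.086). Of the 7 markers only Cd14 had no read in zinc-fed pMT-10 CD4 cells. Adgre1 and Fcgr1 had none in zinc-fed C57BL/6 CD4 cells, and Fcgr1 had none in CD4 cells without zinc. Cd14, Adgre1 and Fcgr1 had no read in zinc-fed pMT-10 CD8 cells. Among the CD8 controls Fcgr1 had none in either group and Adgre1 had none without zinc. Itgam averaged 2.37 CPM in zinc-fed pMT-10 CD4 cells against 1.51 and 1.21 CPM (adjusted p = 0.705 and 0.546), and Lyz2 averaged 1.2 against 0.856 and 0.505 CPM (adjusted p = 0.836 and 0.56), and neither passed. Dendritic cell markers summed to 10.3 to 13.7 CPM in zinc-fed pMT-10 CD4 cells, against 2.47 to 12.6 and 3.75 to 10.1 CPM, and to 1.37 to 5.65 CPM in CD8 cells, against 0.937 to 1.4 and 0.262 to 1.64 CPM. The 4 B cell markers in the panel summed to 3.97 to 12.7 CPM in zinc-fed pMT-10 CD4 cells, against 21.2 to 22.4 and 18.6 to 27.8 CPM, and to 17.6 to 28.9 CPM in CD8 cells, against 33.6 to 45.1 and 26.9 to 51.4 CPM. Cd79b, a B cell receptor component, made up most of these sums and fell in CD4 cells (7.07 against 21.8 and 24.5 CPM, adjusted p = 0.00174 and 0.000704), while Pax5, a factor that defines B cells, was at 0 in every group. Cd79b did not pass in CD8 cells (22.4 against 39.3 and 40.8 CPM, adjusted p = 0.127 and 0.118). Markers of gamma-delta and innate-like T cells summed to 2.32 to 6.66 CPM in zinc-fed pMT-10 CD4 cells, against 6.84 to 14.1 and 18.1 to 25.1 CPM. In CD8 cells these markers summed to 0.0941 to 0.768 CPM, against 0.601 to 0.736 and 0 to 0.488 CPM. Of the 2 tested, 1 fell in CD4 cells against no zinc, where 9.4% of all genes tested did. In CD8 cells 1 of the 2 rose against no zinc, where 5.1% of all genes tested did. Neither was called against C57BL/6 mice. Mast cell and basophil markers reached at most 4.15 CPM and erythroid markers 4.71 CPM. Erythroid sums were 1.76 to 2.32 CPM in zinc-fed pMT-10 CD4 cells, against 0.232 to 4.71 and 0.194 to 1.17 CPM. In CD8 cells they were 2.56 to 4.25 CPM, against 0.28 to 0.468 and 0.159 to 1.66 CPM. The erythroid gene Car1 rose in CD8 cells against C57BL/6 mice (2.82 against 0.195 CPM, adjusted p = 0.0339 in edgeR). The part of these cell types in the chemokine values was not tested. Of 8 T cell identity genes 3 rose in CD4 cells against C57BL/6 mice and 4 against no zinc, with the sum at 9460 to 11000 CPM against 6460 to 7190 and 5730 to 5790 CPM. In CD8 cells 2 and 1 of them fell, with the sum at 7910 to 9680 against 10100 to 10500 and 8770 to 9910 CPM. Of all genes tested 9.29% and 9.38% rose in the CD4 comparisons, and 3.13% and 2.64% fell in the CD8 comparisons.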

How the data were processed

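The deposited values were raw read counts, 1 amplicon per gene, from the Ion AmpliSeq Transcriptome mouse panel, per the labels' protocols, on genome build mm10 per the submitters' processing notes; the aligner, the counting tool and its use of strand were not given in the sources used here. The 18 libraries fell into 6 groups of 3 by their labels, and replicates were numbered in accession order. Labels do not say which CD4 and CD8 libraries came from the same mouse. Amplicon reads carried no molecular identifiers, so totals of 10546798 to 18519474 reads set counting error only.

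Genes were filtered with edgeR's filterByExpr (11316 kept of 23930, all 4 chemokine genes among them), scaled by TMM, and fitted over all 6 groups with edgeR's quasi-likelihood test (edgeR 4.0.16, limma 3.58.1, R 4.3.3), with Benjamini-Hochberg adjustment over all genes tested. The SE is the log2 fold change divided by the square root of F. Correlations used log2 CPM with a prior count of 2. Alternatives were RLE scaling, library size only, no filter, a filter of 10 CPM in 3 libraries, DESeq2 1.42.0, limma voom, the compared groups alone, and each library left out in turn. The fit on the libraries of 1 cell type was added after seeing the data. The code was tested on simulated counts.

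The chemokine genes and the 15 gene lists were chosen with earlier results of these data known. Named were, per list and comparison, up to 4 called genes with the largest log2 fold change (the most abundant where none was called), the receptors, Tbx21, Eomes, Runx3, Klf13, Ifng, Tnf and Csf2, and the 5 genes most like each chemokine gene by Pearson r; some of the listed genes are not reported here. Gene positions are from GENCODE on GRCm38, the assembly of mm10.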

Additional observations from a re-analysis of the deposited data

How the results depend on the processing

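The 12 called rises of Ccl3, Ccl4 and Ccl5 kept their direction and call in all 168 alternatives. Xcl1, not called in edgeR with the filter and all libraries, was called against C57BL/6 mice in CD8 cells with no filter (log2 -1.01) and DESeq2 (-0.995), against no zinc in CD4 cells with no filter (-0.85), limma voom (-0.986), and with zinc-fed pMT-10 CD4 replicate 2 left out (-1.34, adjusted p = 0.0151), and against no zinc in CD8 cells with no filter (-0.627). The cause was not tested. With no filter, 4 chemokine genes were called between the controls in CD4 cells, where 0.416% of all genes were. For Ccl3 edgeR's adjusted p was then 5.31e-27, against 0.767 with the filter, although these groups overlapped. Why the values lay so far apart was not tested. All calls with no filter, those of Xcl1 and Tbx21 among them, come from that fit. The setting with no filter called 2, 3 and 3 between cell types (zinc-fed C57BL/6, zinc-fed pMT-10 and no zinc), beside 12.9%, 15.8% and 12.5% of all genes. It called 2 and 3 for the difference of changes (against C57BL/6, against no zinc), beside 5.29% and 4.24% of all genes. Between cell types in zinc-fed pMT-10 mice 0 were called with library size only and 3 with limma voom or with the compared groups alone, which called 1 without zinc. The shares of all genes called there were 28.3%, 29% and 28.7%, and 24.5% without zinc. For the difference of changes against no zinc DESeq2 called 2, limma voom 1 and the compared groups alone 2, beside 7.06%, 4.07% and 4.11% of all genes.

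Signs of uncalled values turned under limma voom for Tnf against no zinc in CD8 cells (0.00272), Ccl3 between the CD8 controls (-0.0766) and Ccl4 between cell types in zinc-fed C57BL/6 mice (0.102), and with library size only for the difference of Ccl3 changes against C57BL/6 mice (0.051). Leaving out 1 library moved Xcl1 from -0.231 to 0.516 (CD4, against C57BL/6) and from -1.34 to -0.616 (CD4, against no zinc), Tbx21 from -0.207 to 0.179 (CD8, against C57BL/6) and Tnf from -0.373 to 0.345 (CD8, against no zinc). Between controls it moved Ccl5 from -1.07 to 0.0294 (CD4) and from -0.257 to 0.143 (CD8), Ccl3 from -0.434 to 0.446 (CD8), and the log2 ratio of Ccl4 to Ccl3 from -0.0685 to 0.876 (CD4) and from -0.969 to 0.203 (CD8). Between cell types it moved Ccl4 from -0.932 to 0.351 and Ccl5 from -0.17 to 0.936 in zinc-fed C57BL/6 mice (0 to 2 genes called), and Xcl1 from -0.187 to 0.659 in zinc-fed pMT-10 mice (0 to 1 called) and from -0.151 to 0.0948 without zinc. For the difference of changes it moved Ccl3 from -1.22 to 0.365 (against C57BL/6, 0 to 1 called) and Xcl1 from -0.125 to 0.722 (against no zinc, 0 to 1 called). Of all genes these fits called 16.6% to 18.8% between cell types in zinc-fed C57BL/6 mice and 19.1% to 25.8% in zinc-fed pMT-10 mice. They called 2.19% to 7.12% (against C57BL/6) and 1.14% to 5.9% (against no zinc) for the difference of changes.

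Over all genes, calls against C57BL/6 mice in CD8 cells went from 997 to 588 with the compared groups alone and 613 with CD8 libraries alone, and against no zinc from 876 to 559 with CD8 libraries alone. Between controls 16 calls became 83 with no filter and 33 with DESeq2 in CD4 cells, and 11 became 107 and 42 in CD8 cells. For the difference of changes 621 became 1055, 1030 and, with the compared groups alone, 410 (against C57BL/6), and 428 became 847 and 799 (against no zinc). Without zinc-fed pMT-10 CD4 replicate 1 they became 255 and 133, and without replicate 2 of that group 837 and 693. The former also took the CD4 calls from 2115 to 1377 (against C57BL/6) and from 2125 to 1373 (against no zinc). The CD8 calls went from 997 to 587 without zinc-fed C57BL/6 CD8 replicate 3 and from 876 to 565 without pMT-10 without zinc CD8 replicate 3. Library size only moved the median log2 fold change in CD4 cells to -0.155 (against C57BL/6) and -0.196 (against no zinc), and the higher calls from 1051 of 2115 to 831 of 2279 and from 1061 of 2125 to 770 of 2458. No paired analysis was possible because the labels carry no replicate numbers and do not say which libraries share a mouse. Depth limits Ccl4 in the controls, at 1 to 37 reads per library.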
